A study of Mus musculus with 3 samples.

Results

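The 34 genes described here serve the lysosome and autophagy, and they were taken by gene name from a list of members. The rule itself uses no measured value, but the list was drawn up with earlier results of these data known. All 34 were found on the arrays. A total of 32 had a probe well above background on at least 1 array, out of 15740 genes with such a probe among 24720 genes on the array with a current symbol, and each of the 32 was well above background on all 3 arrays. The other 2 members were Ctss, for cathepsin S (1 probe), and Atp6v0d2, for the d2 form of a proton pump subunit (2 probes). Both encode proteins known from macrophages and osteoclasts.

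Expression was measured in Hepa1c1c7, a mouse hepatoma cell line, after transfection with an empty vector (Empty), a vector for Cd74 or a vector for Tmem54. Cd74 encodes the invariant chain of MHC class II, which itself travels to endosomes and lysosomes and is degraded there, and Tmem54 encodes a membrane protein. Each vector had 1 Agilent array of 1 colour, so every difference below lacks a replicate check, no test was possible and no p-value is given. The promoter of the vectors, the time after transfection and whether the cells were selected are not given in the sources used here.

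The lysosome is an acidic compartment in which hydrolases of the lumen degrade proteins, glycans and lipids. A proton pump, the V-ATPase, acidifies it, and a coat of glycosylated membrane proteins, channels and cholesterol transporters bounds it. Autophagy delivers cytoplasm to the lysosome: proteins of the ATG8 family are attached to the growing membrane, and receptors such as Sqstm1 (p62) tether cargo to them. Transcription of many of these genes is raised by the related factors Tfeb, Tfe3 and Mitf, which enter the nucleus when the kinase mTORC1 is inactive at the lysosome and bind an E-box element known as CLEAR. Sqstm1 is also a known target of the oxidative stress factor NRF2.

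The letters TCACGTG, the core of that element, were searched on both strands in promoter windows from 250 bases before to 50 bases after each annotated start. The promoter table matched 29 of the 34 members. Of these, 8 (27.6%) held the letters, against 6.23% of 12416 genes well above background in this series and 4.29% of all 27025 genes in the table. The element was itself described from promoters of lysosomal genes, so a high share among such genes is known in advance. A match describes letters only and shows no binding. The 8 genes were Lamp1 (4 sites), Ctsa, Ctsd, Gla and Mcoln1 (2 each), and Atp6v0d1, Atp6v1a and Glb1 (1 each). Promoters are printed for a membrane protein, a channel and a hydrolase with sites, for a pump subunit with a site that was lower on the Cd74 array, and for Sqstm1, the member with the largest difference, whose window holds no match. The sequences come from RefSeq on build GRCm38.p6, 5′ to 3′ on the strand of the gene, with the matched letters in capitals. The windows are chr8:13158911-13159210 (+) for Lamp1, chr8:3500269-3500568 (+) for Mcoln1, chr7:142387778-142388077 (-) for Ctsd, chr16:44139210-44139509 (-) for Atp6v1a and chr11:50210771-50211070 (-) for Sqstm1.
Lamp1: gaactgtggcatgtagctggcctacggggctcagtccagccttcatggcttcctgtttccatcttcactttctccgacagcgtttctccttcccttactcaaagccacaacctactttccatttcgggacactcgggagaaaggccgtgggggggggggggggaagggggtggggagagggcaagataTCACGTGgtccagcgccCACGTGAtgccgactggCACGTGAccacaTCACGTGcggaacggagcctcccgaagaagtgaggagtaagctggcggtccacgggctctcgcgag
Mcoln1: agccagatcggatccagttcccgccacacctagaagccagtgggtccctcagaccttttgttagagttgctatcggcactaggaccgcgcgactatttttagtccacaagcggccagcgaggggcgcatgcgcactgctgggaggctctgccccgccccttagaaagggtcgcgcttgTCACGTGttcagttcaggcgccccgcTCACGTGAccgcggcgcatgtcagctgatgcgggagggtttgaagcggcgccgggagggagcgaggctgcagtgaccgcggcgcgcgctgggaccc
Ctsd: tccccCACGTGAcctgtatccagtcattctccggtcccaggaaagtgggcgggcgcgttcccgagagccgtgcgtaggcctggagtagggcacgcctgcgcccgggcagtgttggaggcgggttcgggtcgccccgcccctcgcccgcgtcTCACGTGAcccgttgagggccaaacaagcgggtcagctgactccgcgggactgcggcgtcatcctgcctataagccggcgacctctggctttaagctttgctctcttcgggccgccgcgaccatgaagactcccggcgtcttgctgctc
Atp6v1a: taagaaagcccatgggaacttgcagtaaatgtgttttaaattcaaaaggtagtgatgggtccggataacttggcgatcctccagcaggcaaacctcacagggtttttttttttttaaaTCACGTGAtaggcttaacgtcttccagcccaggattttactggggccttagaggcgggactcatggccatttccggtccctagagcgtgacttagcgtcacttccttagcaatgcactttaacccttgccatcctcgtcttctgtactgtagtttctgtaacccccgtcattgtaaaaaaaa
Sqstm1: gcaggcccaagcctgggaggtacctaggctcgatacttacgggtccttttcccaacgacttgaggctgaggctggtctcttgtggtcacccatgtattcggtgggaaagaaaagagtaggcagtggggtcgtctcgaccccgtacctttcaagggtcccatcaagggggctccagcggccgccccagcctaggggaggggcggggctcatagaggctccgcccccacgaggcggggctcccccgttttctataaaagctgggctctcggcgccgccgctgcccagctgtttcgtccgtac

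In Lamp1 all 4 sites lay within 61 bases upstream of the start, at 61, 45, 28 and 15 bases from it. The sites of Mcoln1 lay 71 and 45 bases upstream, and those of Ctsd 245 and 98. The single site of Atp6v1a lay 131 bases upstream. Ctsa has 2 annotated starts, and 1 of the windows held both of its sites, 12 bases upstream of the start and just after it.

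**Figure D1:**
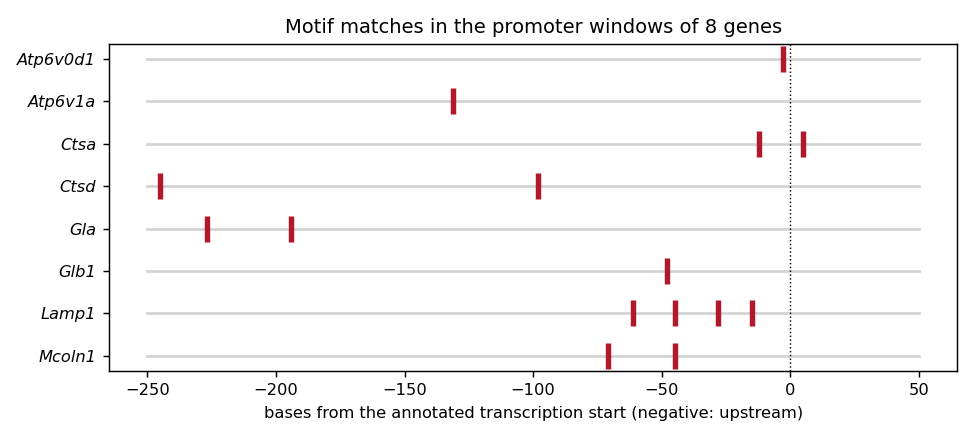
Positions of TCACGTG on either strand in the promoter windows of the 8 members that hold it. The x axis gives bases from the annotated transcription start, grey lines are the windows and red bars the first base of each CACGTG core. The 4 sites of Lamp1 lie between 61 and 15 bases upstream.

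Each transfected gene was high on its own array. The difference from Empty was 8.73 on the log2 scale for Cd74. It was at least 1498-fold for Tmem54, whose probe was not well above background with Empty. Between 55.7% and 57.2% of the spots other than controls were well above background on each array, and no such spot was saturated (0). Of 12 hepatocyte markers, 7 were well above background on every array, among them Alb, Afp and Trf, while Ttr, Apoa1, Apoh, Ahsg and Hnf4a were not well above background on any array. Of 15 macrophage markers, 7 were well above background on every array, among them Csf1r, Ptprc and Itgam, and Adgre1, Mrc1, Clec4f, Timd4, Fcgr1, C1qa, Aif1 and Cd163 were not on any. The summed signal of the macrophage markers, before scaling between arrays, was 13814.4 with Empty, 12147.7 with Cd74 and 13513.5 with Tmem54. Their median difference from Empty was -0.19 with Cd74 and -0.11 with Tmem54. The summed signal of the hepatocyte markers was 87011.9, 71643.2 and 97258.5 in the same order. Their median difference from Empty was -0.20 with Cd74 and 0.087 with Tmem54, and Alb, for albumin, differed by -0.87 and 0.83. Of 10 fibroblast and stellate cell markers 8 were well above background on every array, with a median difference of -0.14 with Cd74 and 0.11 with Tmem54. Their summed signal went the other way, with 90906.5, 92025 and 82567.6 in the same order. Dcn, the brightest of them and the only one above 0 with Cd74, differed by 0.23 and -0.26, and Col1a1 by -0.76 and 0.32. The summed signals are not scaled between arrays, whose 75th percentiles were 673.8 with Empty, 642.8 with Cd74 and 677.7 with Tmem54. The part of these markers in the results was not tested. In a pool of cells, fewer cells that express a gene and less RNA per cell cannot be told apart.

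With the Cd74 vector most of the lysosome and autophagy genes were slightly higher than with the empty vector, and Sqstm1 was the 1 member among the 32 that differed by at least 2-fold, on its brightest probe. With the mean over its 3 probes, of which 1 was dim, Sqstm1 differed by 0.89 and no member reached 2-fold. The median difference on the log2 scale was 0.16 over 32 members, against 0.015 over 15559 genes compared. A total of 24 members were above 0 and 8 below, so 75% were above 0 against 52.7% of all genes compared. At least 2-fold higher was 1 member, with 1.03% of all genes compared so counted, and at least 2-fold lower were 0 members, against 1.38%. In size alone the members did not stand out: the median absolute difference was 0.17, against 0.16 for all genes compared. Without Sqstm1 the median was 0.15. The members other than Sqstm1 lay between -0.17 and 0.40.

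The size of these differences has to be read against noise within the arrays, the only noise these data give. The error model of the scanner software, which presets a multiplicative error of 0.1, gave an error of about 0.20 for the difference of a bright probe. Replicate spots of the same probe varied less, with a noise of 0.053 for a difference. Of the members, 15 were higher with Cd74 by more than the model error of their own difference, against 18.5% of 14646 genes measured on both arrays. Lower by more than that error were 0 members, against 15.8%. Ctsl and Cd63 were read by probes printed 10 times, so that their model error was 0.06, and Cd63 would not be among the 15 with the error of a single spot. Neither error covers the spread between cultures.

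**Figure D2:**
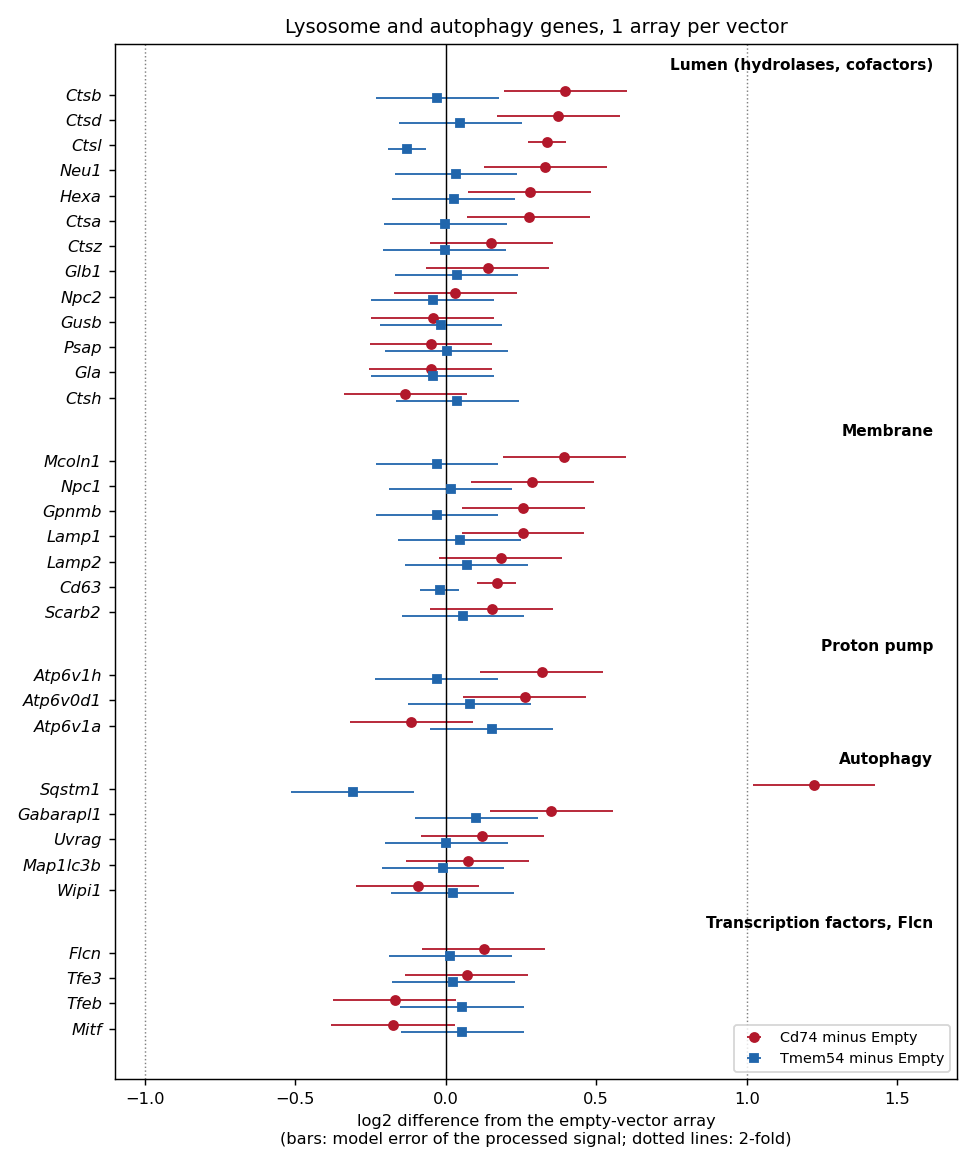
Log2 difference from the Empty array for the 32 members well above background, by role, with Cd74 as red circles and Tmem54 as blue squares. Bars are the model error of the processed signal and dotted lines mark 2-fold. Sqstm1 at 1.22 is the only member past 2-fold, and the Tmem54 values lie between -0.31 and 0.15.

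Levels below are log2 processed signals minus the 75th percentile of their array and are compared within a gene only. The autophagy genes held the largest difference. Of the 5 autophagy members, 2 (Sqstm1 and Gabarapl1) were higher with Cd74 by more than their model error, against 18.5% of all genes measured. Sqstm1, for the cargo receptor p62, had a level of 6.02 with Empty, 7.25 with Cd74 and 5.71 with Tmem54. Its probe lies on chromosome 11 from 50013670 to 50013729 (build mm9) in the messenger RNA of the gene, and its processed signals were 43789.6, 97565.9 and 35551.7. The difference from Empty was 1.22 ± 0.20 (model error) with Cd74, which is 2.34-fold, and -0.31 ± 0.20 with Tmem54. The Cd74 array was thus the highest and the Tmem54 array the lowest for this gene. Among 14427 genes that every array measured above background, Sqstm1 ranked 29 from the highest difference with Cd74, and 5.23% of these genes had a lower difference with Tmem54.

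Of the ATG8 family, Gabarapl1 had levels of 4.30, 4.65 and 4.40 with Empty, Cd74 and Tmem54, a difference of 0.35 ± 0.20 with Cd74. Map1lc3b, for LC3B, which is widely used to mark autophagosomes, had 5.96, 6.03 and 5.95, a difference of 0.07 with Cd74. The autophagy genes therefore did not share the size of the Sqstm1 difference. Uvrag, a partner of the Beclin 1 lipid kinase complex, differed by 0.12 with Cd74 on its brightest probe, and Wipi1, a phosphoinositide-binding protein of the early autophagosome, by -0.09. The median of the 5 autophagy members was 0.12 with Cd74 and 0.003 with Tmem54.

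The 7 membrane proteins were all above 0 with Cd74, from 0.15 to 0.39, with a median of 0.26. Of the 7, 5 were higher by more than their model error with Cd74, against 18.5% of all genes measured, and 0 with Tmem54, against 5.84%. Cd63 was 1 of the 5 only through its repeated spots. Mcoln1, for the calcium channel TRPML1 of the lysosome, had levels of 3.38 with Empty, 3.77 with Cd74 and 3.35 with Tmem54. Its difference of 0.39 ± 0.20 was the largest of the group on these probes. Npc1, a transporter that exports cholesterol from the lysosome, had 1.83, 2.11 and 1.84, a difference of 0.29 with Cd74. Lamp1, a main glycoprotein of the lysosomal membrane, had 7.37, 7.62 and 7.41. Its relative Lamp2 had 3.14, 3.33 and 3.21. For each of these genes the Cd74 array was the highest and the other arrays lay within 0.07 of each other. Gpnmb, a glycoprotein induced in stressed lysosomes of phagocytes, differed by 0.26, Lamp2 by 0.18, the tetraspanin gene Cd63 by 0.17 and Scarb2, the receptor that carries glucocerebrosidase to lysosomes, by 0.15.

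Of 13 measured members of the lumen, 9 were above 0 with Cd74 and 4 below, with a median of 0.15. The cysteine protease gene Ctsb had levels of 5.93 with Empty, 6.33 with Cd74 and 5.90 with Tmem54, a difference of 0.40 ± 0.20 with Cd74. The aspartic protease gene Ctsd had 5.26, 5.64 and 5.31, a difference of 0.37 ± 0.20. Ctsl, for cathepsin L, had 7.26, 7.60 and 7.13, and its differences of 0.34 with Cd74 and -0.13 with Tmem54 both exceeded a model error of 0.06. Ctsz and Ctsh lay within their model error. Ctsz, for cathepsin Z, differed by 0.15 and Ctsh, for cathepsin H, had 5.84, 5.70 and 5.88, a difference of -0.13 with Cd74; its 3 further measured probes gave -0.22, -0.20 and 0.23.

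Neuraminidase 1, beta-galactosidase and cathepsin A form a complex in the lumen. Their genes were each above 0 with Cd74, and the gaps between them did not exceed the model error. Neu1 had levels of 2.83, 3.16 and 2.86 with Empty, Cd74 and Tmem54, a difference of 0.33 with Cd74. Ctsa had 7.08, 7.35 and 7.08, a difference of 0.28, and Glb1 had 3.03, 3.17 and 3.07, a difference of 0.14. Hexa, for the alpha subunit of beta-hexosaminidase, differed by 0.28. Near 0 with Cd74, on the brightest probe, were the alpha-galactosidase gene Gla (-0.050), the beta-glucuronidase gene Gusb (-0.044), the saposin precursor gene Psap (-0.049) and Npc2 (0.032), for the soluble cholesterol carrier that works with Npc1. A further Gusb probe, with a signal of 2072.9 with Empty, gave -0.23 with Cd74 and 0.12 with Tmem54. Of the 13 members of the lumen, 6 were higher by more than their model error with Cd74, against 18.5% of all genes measured.

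The proton pump had 3 measured members. Atp6v1h, for a regulatory subunit of the cytosolic V1 sector, had levels of 4.96, 5.28 and 4.93 with Empty, Cd74 and Tmem54, a difference of 0.32 with Cd74. Atp6v0d1, of the membrane sector V0, had 2.44, 2.70 and 2.52, a difference of 0.26. The gene of the catalytic subunit, Atp6v1a, went the other way with 3.23, 3.11 and 3.38, a difference of -0.11 with Cd74 and 0.15 with Tmem54, so the Tmem54 array was its highest.

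The 4 regulators had 2 members above 0 and 2 below with Cd74. Tfeb had levels of -0.65 with Empty, -0.82 with Cd74 and -0.60 with Tmem54, a difference of -0.17 with Cd74. Mitf had -1.21, -1.38 and -1.15, likewise a difference of -0.17. Tfe3 had 3.93 with Empty and differed by 0.07 with Cd74 and 0.03 with Tmem54, and Flcn, a regulator of the Rag GTPases that hold Tfeb and Tfe3 in the cytosol, had 2.76, 2.89 and 2.78. The median of the 4 was -0.050 with Cd74, and each lay within its model error. The values of Tfe3 and Flcn went below 0 with Cd74 when all their probes were averaged. Each mean takes in a dim probe that was not well above background with Cd74. The signals of that probe with Empty and Cd74 were 14.3 and 7.95 for Tfe3 and 20.6 and 11.1 for Flcn. Another Flcn probe, with a signal of 2849.1 with Empty, gave 0.08. All values of the 4 regulators are messenger RNA levels, while the activity of these factors is mainly set by phosphorylation and location in the cell, which the arrays do not measure.

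**Figure D3:**
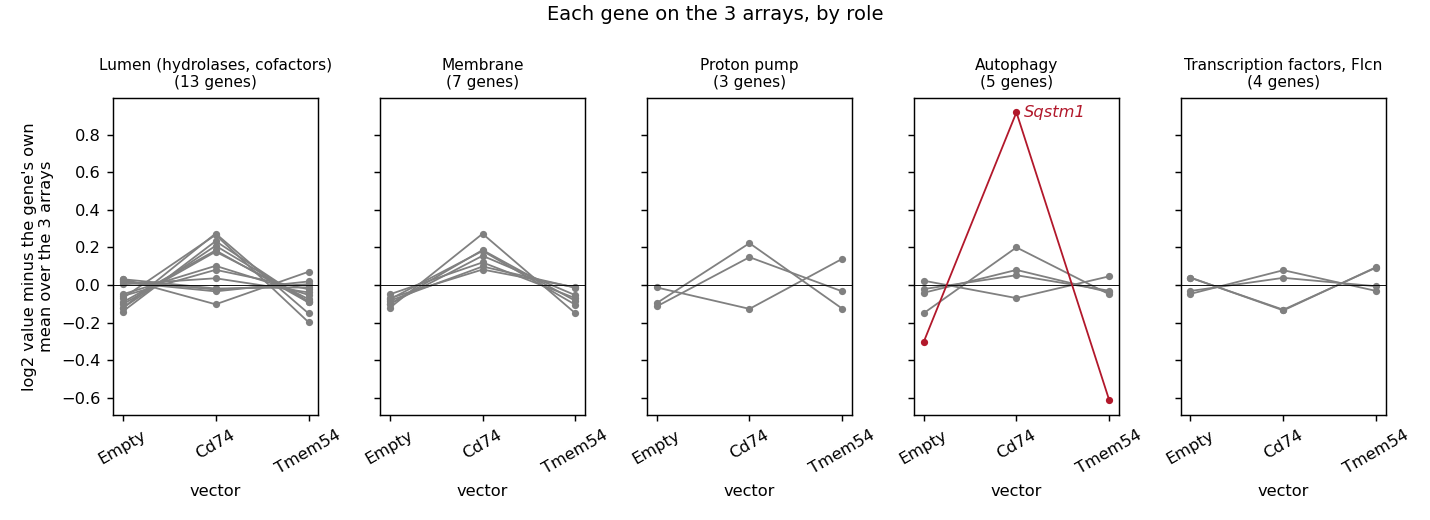
Each measured member on the 3 arrays, as its log2 value minus its own mean over the arrays, in panels by role. Lines join the values of a gene. All 7 membrane genes are highest on the Cd74 array, and Sqstm1 (red) spans 1.53 between Cd74 and Tmem54.

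With the Tmem54 vector the members stayed close to the empty vector. The median difference was 0.016 over 32 members, against 0.001 over 15461 genes compared, and 19 members were above 0 and 13 below. The median absolute difference was 0.032 for the members and 0.075 for all genes compared. At least 2-fold higher were 0 members, against 0.524% of all genes compared, and at least 2-fold lower were 0, against 0.802%. By more than their model error 0 members were higher, against 5.84% of 14642 genes measured on both arrays, and 2 were lower, against 7.57%. Those were Sqstm1 and Ctsl, the latter only through its repeated spots. The further Ctsl probe gave -0.003 with Tmem54, at a signal of 93.4 with Empty. The highest members were Atp6v1a (0.15) and Gabarapl1 (0.10).

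Set directly against each other, the Cd74 array had a median 0.14 above the Tmem54 array over the 32 members, against 0.024 over 15369 genes compared. This contrast shares an array with each of those above and is no independent evidence. Sqstm1 differed by 1.53, or 2.89-fold, and was the 1 member at least 2-fold higher, against 1.63% of all genes compared. At least 2-fold lower were 0 members, against 1.69%. By more than the model error 14 members were higher, against 21.9% of 14497 genes measured on both arrays, and 3 were lower, against 17.7%. Those 3 were Atp6v1a (-0.27), Mitf (-0.23) and Tfeb (-0.22), and the next highest members after Sqstm1 were Ctsl (0.46), Ctsb (0.43) and Mcoln1 (0.42). Cd63 (0.19) was among the 14 only through its repeated spots.

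Members with several probes show how far a value depends on the probe. Of 34 further member probes measured on both arrays, in 19 genes, 29 gave the same sign as the brightest probe for Cd74 against Empty, and the median gap between them was 0.11. For Tmem54 against Empty 15 of 33 gave the same sign. Sqstm1 had 3 probes. Those at transcript positions 1954 and 1090 gave 1.22 and 1.21 with Cd74 and -0.31 and -0.39 with Tmem54. The third, on chromosome 11 from 50012868 to 50012927 at position 2613 of an Ensembl transcript, had signals of only 28.6, 32.4 and 30.9 with Empty, Cd74 and Tmem54 and gave 0.25 with Cd74.

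The agreement was also close for Lamp1 (0.26 and 0.19), Atp6v1h (0.32 and 0.27) and both Map1lc3b probes on the RefSeq transcript (0.07 and 0.03). All 4 Tfeb probes were below 0 with Cd74, from -0.40 to -0.17, and all 3 measured Mitf probes were too, from -0.24 to -0.17. Both of these genes have low levels. The values of Mcoln1, Gabarapl1 and Uvrag were less secure. Both further probes of Uvrag went below 0 with Cd74, with -0.27 at a signal of 44.8 with Empty and -0.20 at 22.6, against 0.12 on its brightest probe. The further probe of Mcoln1 gave -0.15 at a signal of 25.5 with Empty, and that of Gabarapl1 gave 0.11 at 830.1. For Glb1 the 4 further measured probes ranged from -0.01 to 0.42.

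**Figure D4:**
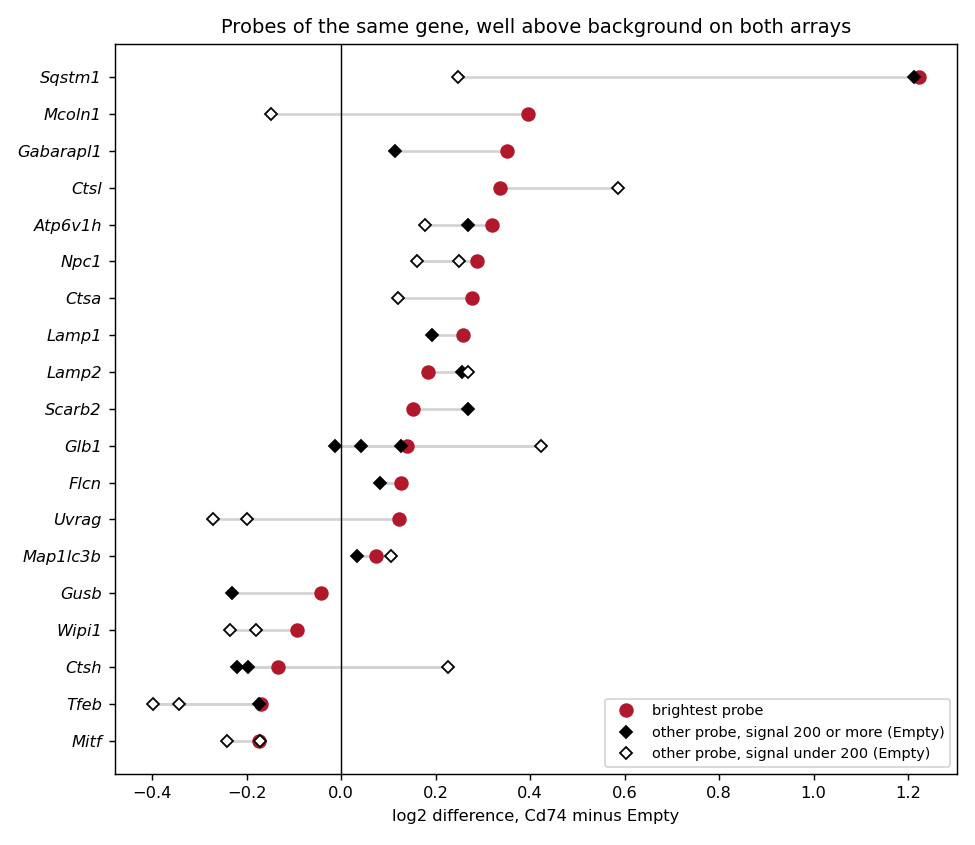
Log2 difference, Cd74 minus Empty, for every probe of members with more than 1 probe well above background on both arrays. Red circles are the brightest probe, filled diamonds other probes with an Empty signal of at least 200 and open diamonds dimmer ones. The pair of brighter Sqstm1 probes gave 1.22 and 1.21 and the dim one 0.25.

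A wider list of 162 further genes of the lysosome, the pump, autophagy, mTORC1 signalling and lysosomal delivery gave 155 genes well above background on at least 1 array. With Cd74 their median difference was 0.10, with 108 above 0 and 47 below (69.7% above 0, against 52.7% of all genes compared). At least 2-fold higher were 0, against 1.03% of all genes compared, and at least 2-fold lower were 0, against 1.38%. By role the median was 0.21 for 19 delivery genes (16 above 0), 0.15 for 14 pump genes, 0.13 for 48 autophagy genes (38 above 0), 0.086 for 17 membrane genes, 0.069 for 31 genes of the lumen and 0.021 for 26 regulators. Of the 154 measured on both arrays 48 were higher by more than their model error and 12 lower, against 18.5% and 15.8% of all genes measured. With Tmem54 the median was -0.006, with 73 above 0 and 82 below, and 7 of 153 measured were higher and 2 lower by more than the model error, against 5.84% and 7.57% of all genes measured. At least 2-fold higher with Tmem54 was 1 gene, against 0.524% of all genes compared, and at least 2-fold lower were 0, against 0.802%.

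Within the wider list the highest measured autophagy gene with Cd74 was Atg14 (0.63), a subunit of the lipid kinase complex that starts autophagosomes, and the lowest was the kinase gene Ulk2 (-0.63). Among delivery genes Vps18, of the tethering complexes for fusion with the lysosome, differed by 0.50 and Igf2r, for the mannose 6-phosphate receptor, by -0.56. Among membrane genes Mfsd8 differed by 0.56 and the peptide transporter gene Abcb9 by -0.65. Of the lumen, the iduronate sulfatase gene Ids had the lowest difference, -0.23. The pump genes kept to a narrow range, from -0.074 for Atp6v0e to 0.25 for Atp6v1c1. Among regulators Zkscan3, described as a repressor of autophagy genes, differed by 0.46 and the sestrin gene Sesn1 by -0.44.

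With Tmem54 the extremes were Tcirg1 (-0.14) and Atp6v0a1 (0.14) in the pump, Atg10 (-0.23) and Atg3 (0.22) in autophagy, Rragd (-0.26) and Sesn3 (0.27) among regulators, and Hgs (-0.14) and Igf2r (0.31) in delivery. Among membrane genes Ctns, for the cystine exporter of the lysosome, differed by -0.12. Mfsd8, for a lysosomal membrane protein of a childhood storage disease, differed by 1.65 ± 0.31 (model error), the only gene of the wider list past 2-fold from Empty. Its signals were 19.8 with Empty, 27.9 with Cd74 and 62.5 with Tmem54, where the lowest signals counted as well above background were 13.1, 13.5 and 13.9.

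**Figure D5:**
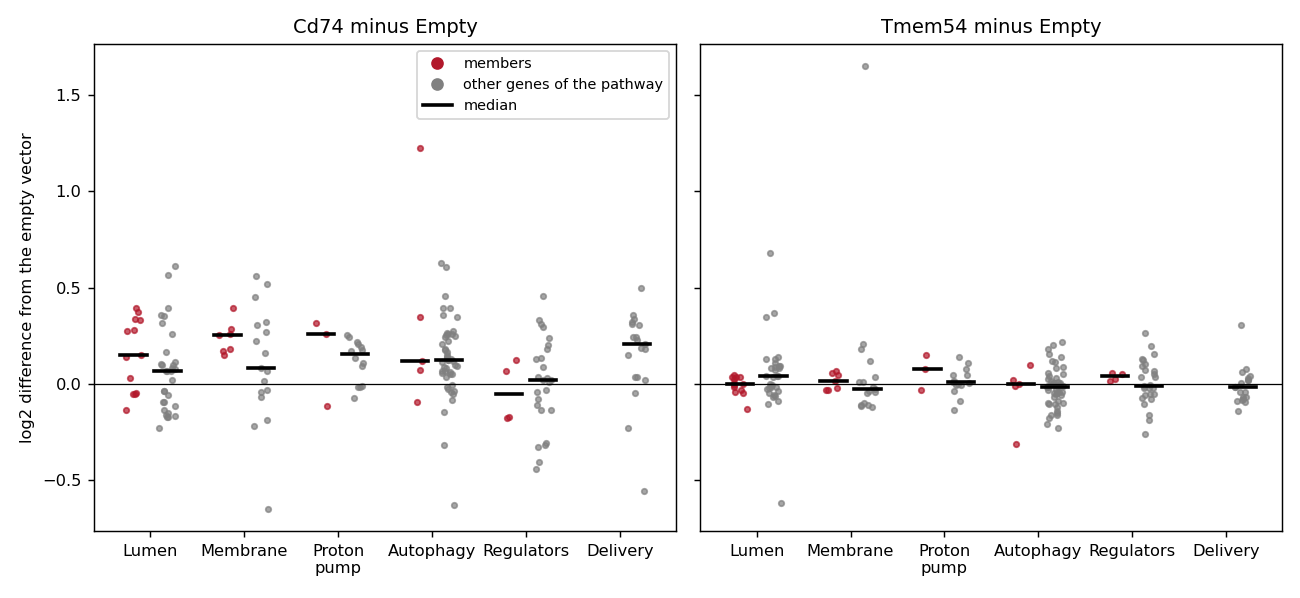
Log2 difference from the Empty array by role, for members (red) and the other genes of the pathway (grey), with Cd74 on the left and Tmem54 on the right and black bars as medians. With Cd74 the delivery median is 0.21 and that of the members of the membrane group 0.26; with Tmem54 the single point past 2-fold is Mfsd8.

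Members with the TCACGTG letters in the promoter window had a median difference of 0.26 with Cd74 over 8 genes, 6 of them above 0, and ranged from -0.11 to 0.39. The 20 measured members of the promoter table without the letters had a median of 0.14, with 15 above 0. The ranges overlap, since Sqstm1 has no match and Atp6v1a and Gla, which do, were below 0. With Tmem54 the medians were 0.042 and 0.010. No difference between these sets was tested.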

How the data were processed

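Total RNA of 1 sample per vector was labelled with Cy3 and read on 3 arrays, per the labels' protocols. The authors' deposited intensity is the processed signal of Agilent Feature Extraction 12.0.3.1 per the file headers and the submitters' processing notes, a linear value after background subtraction and spatial and multiplicative detrending. Control spots and 119 to 135 outlier spots per array were left out. Each array was scaled on the log2 scale to its own 75th percentile of the processed signal, 673.8 for Empty, 642.8 for Cd74 and 677.7 for Tmem54. Spots of a probe were averaged, and each gene was read from its brightest probe among those that any array showed well above background. Where 1 side was not well above background, the difference is a bound against the higher of the lowest signal well above background on that array and the probe's own. Gene names are those of the array files, kept where RefSeq (GRCm38.p6) has them as a symbol or unique synonym. Probe coordinates are mm9 as in the files. Genes were counted at 2-fold. The deposited value table is the same signal over a constant that differs by array (580.3, 559.8 and 580.7), so it is linear and uncentred, with column medians of 0.0409, 0.0393 and 0.039.

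With 1 array per group no test was run. The steps were tested on simulated data in which every planted difference was past 2-fold and the background flags were the same on every array. That test covers neither differences as small as those of most members nor the bounds. The members and lists were chosen with earlier results of these data known, and the gene names in the text follow a rule that takes every member, the transfected genes, the further pathway genes past 2-fold from Empty and the highest and lowest per role among those well above background on all 3 arrays. Some lumen genes that this rule takes are not reported here. Alternatives were normexp (limma 3.58.1, offset 50), median centring, quantile normalization, other filters and probes, the deposited table and 1.5-fold. Tools were Python 3.11.15 and pandas 2.3.3.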

Additional observations from a re-analysis of the deposited data

How the results depend on the processing

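The threshold for calling a median kept, the noise of replicate spots, was chosen after seeing the data, as was the median without Sqstm1. Scaling, background correction, filters on dim probes and the deposited table left the member medians and counts close to the values reported, with 12 of 12 such summaries kept under each of these 6 alternatives. The filter that asks for every array could change nothing for the members, since each measured member passes it. Median centring and the deposited table only shift an array by a constant, so they check little beyond the scaling. The probe mattered more. With the next-brightest probe, which exists for 20 members, the median was 0.098 for Cd74 against Empty, with 12 of the 20 above 0, and 0.081 for Cd74 against Tmem54 over 19 members. With the mean over probes Sqstm1 differed by 0.89 with Cd74, because its dim probe enters the mean, and 0 members were then at least 2-fold higher than Empty. Over all alternatives the median was between 0.098 and 0.16 for Cd74 against Empty and between -0.022 and 0.024 for Tmem54 against Empty, so its sign with Tmem54 depends on the setting. For Cd74 against Empty, Mcoln1 turned to -0.15, Uvrag to -0.27 and Tfe3 to -0.015 with the next-brightest probe, and Uvrag to -0.12, Tfe3 to -0.35 and Flcn to -0.21 with the mean over probes. The Tfe3 value of -0.015 is a bound, and the means of Tfe3 and Flcn take in probes not well above background with Cd74. The count of all genes past 2-fold with Cd74 was 57 higher and 61 lower with normexp, 755 and 846 with no filter on dim probes, 50 and 49 with the next-brightest probe, and 57 and 122 where every array had to be well above background, against 161 and 214. With Tmem54 these were 31 and 34, 512 and 831, 30 and 37, and 23 and 56, against 81 and 124. For Cd74 against Tmem54 they were 94 and 105, 943 and 753, 65 and 67, and 138 and 169, against 251 and 259. Without a filter the median of all genes was 0.092 with Cd74, nearer to the 0.16 of the members. A fold of 1.5 gave the same member counts as 2. Searching CACGTG in place of TCACGTG raised the share of promoters to 31.0% of members and 10.7% of genes well above background. No paired analysis was possible because each group has 1 array.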

Other observations

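Motif letters of other stress factors, chosen after seeing the data, were counted in the same promoter windows. TGACNNNGC, the core of the element bound by NRF2, was found on either strand in 8 of 29 members (27.6%) and in 16.2% of genes well above background. TGATGNAA, an element bound by ATF4 with C/EBP partners, was found in 2 members (6.90%) and in 3.21% of genes well above background. Neither was found in the window of Sqstm1, which says only that these letters are not in those bases. The wider list of pathway genes held TCACGTG in 23 of 130 genes (17.7%).

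The acid phosphatase gene Acp5, of the lumen, had signals of 24.8 with Empty and 36.2 with Cd74, a difference of 0.61, and was not well above background with Tmem54, so the Cd74 array was at least 2.34-fold above the Tmem54 array. It was chosen after its values were seen, and its signals were dim on every array. The lysosomal glycoprotein gene Cd68, widely used as a macrophage marker and here among the further membrane genes, had signals of 1185.9, 1622.5 and 1108.1 with Empty, Cd74 and Tmem54, a difference of 0.52 with Cd74. It too was chosen after its values were seen.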
